A study of Drosophila melanogaster with 12 samples.

Results

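The genes described here encode the giant proteins of Drosophila melanogaster: protein-coding genes whose longest annotated coding sequence has at least 9000 nt, without sls and bt, the genes of the titin-related muscle proteins. The annotation (assembly BDGP6.54) held 103 genes past this length and 101 after those 2 were set aside, and all 101 had counts among the 12759 protein-coding genes of the table. The rule uses coding length alone and no measured value. Their longest coding sequences ran from 9012 nt in Bicra to 68850 nt in dpy, with a median of 11346 nt.

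Whole female flies were measured by Ribo-Seq, which sequences the RNA pieces that ribosomes shield from RNase I (footprints), and by RNA-Seq. Wild-type (White Dahomey) flies were compared with flies that carried the P-element insertion dC53EY22749 in Polr3D on 1 chromosome, written Polr3D EY/+. Polr3D is a subunit of RNA polymerase III, and the mutants were heterozygous because homozygotes do not live. Both groups were of the outbred Dahomey background, lysates for Ribo-Seq contained cycloheximide, and the labels give no age for these flies. The table held 3 wild-type and 3 Polr3D EY/+ Ribo-Seq libraries and 2 wild-type and 3 Polr3D EY/+ RNA-Seq libraries. The labels do not say that replicates were separate cultures, so p-values measure only the spread between these samples.

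Protein-coding genes held 1127599 to 3192166 counts in a Ribo-Seq library and 24299908 to 28718489 in an RNA-Seq library. Levels are given as CPM, counts scaled so that this protein-coding total is 1000000. A count of 3, treated as the floor, was worth 0.940 to 2.66 CPM in Ribo-Seq and 0.104 to 0.123 CPM in RNA-Seq. Polr3D RNA was 57.7 ± 8.42 CPM (SD, n = 2) in wild-type and 30.2 ± 0.528 CPM (n = 3) in Polr3D EY/+ flies, a log2 difference of -0.92 ± 0.25 (SE, adjusted p = 0.0284, DESeq2), as the labels give it. Of the cell type markers, fat body and follicle cell genes were abundant, and 7 testis genes together had at most 8.87 CPM in any library of footprints and at most 2.59 CPM in any library of RNA. The 5 male accessory gland genes together had 87.8 CPM of footprints in wild-type replicate 2, 37.0 CPM of footprints in Polr3D EY/+ replicate 3 and 19.3 CPM of RNA in Polr3D EY/+ replicate 1, against at most 5.64 CPM in the other 8 libraries.

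Giant proteins serve where length or many repeated domains are needed. Dynein heavy chains are the motors that walk along microtubules, spectraplakins and nesprins tie the cytoskeleton together, giant cadherins and matrix proteins join cells to each other and to their surroundings, and lipoproteins carry fat through the haemolymph. A ribosome needs longer to read a long coding sequence, so at the same rate of initiation and the same speed a longer message carries more ribosomes, and a longer message also gives more RNA-Seq fragments. Footprints and RNA are therefore compared below both as totals per gene and per kilobase.

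The 101 genes took a larger share of footprints than of RNA. Their share of protein-coding footprints was 2.29%, 2.11% and 2.05% in the wild-type libraries and 2.0%, 1.98% and 2.09% in the Polr3D EY/+ libraries. Their share of protein-coding RNA was 0.427% and 0.444% in wild-type and 0.410%, 0.396% and 0.453% in Polr3D EY/+ libraries. Every Ribo-Seq share was above every RNA-Seq share, and the shares of the 2 genotypes overlapped in RNA-Seq and in Ribo-Seq. The 95% Wilson interval of the wild-type replicate 1 share of footprints was 2.27% to 2.32%; such intervals cover counting error only. A pair of genes supplied much of the footprints. Without apolpp and Muc12Ea the share was 0.807% to 1.0% of footprints and 0.2496% to 0.316% of RNA.

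apolpp encodes the precursor of the apolipophorins, the main fat carrier of the haemolymph, and lies on chromosome 4 (1060969 to 1077273, + strand). Its footprints were 9728, 8876 and 9064 CPM in wild-type and 8460, 8828 and 9832 CPM in Polr3D EY/+ libraries. Its RNA was 1492 and 1222 CPM in wild-type and 1075, 1413 and 1453 CPM in Polr3D EY/+ libraries. The genotypes overlapped in both assays. Per kilobase, apolpp was the member with the most footprints and with the most RNA, at 917 footprint CPM per kilobase of coding sequence and 131 RNA CPM per kilobase of transcript in wild-type.

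Muc12Ea, a gene of the mucin family on chromosome X (14277735 to 14288161, + strand), was the next member by footprints per kilobase, with 317 CPM per kilobase. Its footprints were 3197, 3170 and 3101 CPM in wild-type and 2892, 2848 and 3037 CPM in Polr3D EY/+ libraries. Its RNA was 63.4 and 56.2 CPM in wild-type and 34.5, 45.9 and 46.5 CPM in Polr3D EY/+ libraries. Footprints and RNA were both lower in every Polr3D EY/+ library than in any wild-type library.

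The other members among the 10 with the most wild-type footprints per kilobase were Apoltp, the lipid transfer particle of the haemolymph (56.4 CPM per kilobase), Dhc64C, the heavy chain of cytoplasmic dynein (47.0), mgl, the endocytic receptor megalin (47.0), poe, a very large ubiquitin ligase (37.5), trol, the basement membrane proteoglycan perlecan (30.8), ctrip, a ubiquitin ligase (25.9), LanA, a laminin chain (24.4), and Hml, the haemocyte clotting protein hemolectin (22.9). Only ctrip of these had most of its RNA on shorter isoforms, with 4.24% on transcripts whose coding sequence reached 9000 nt.

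**Figure D1:**
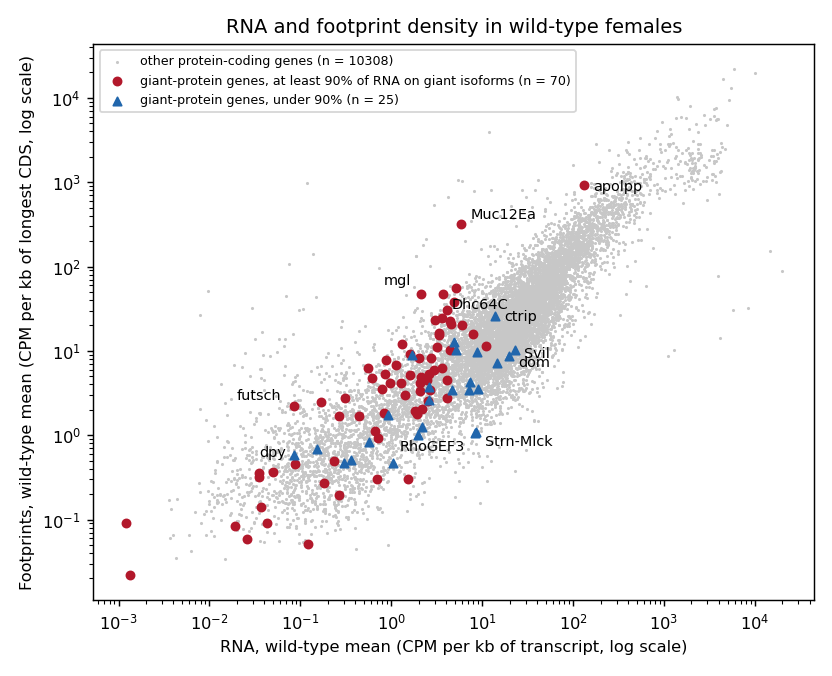
RNA (horizontal, mean CPM per kilobase of transcript over 2 wild-type libraries) and footprints (vertical, mean CPM per kilobase of the longest coding sequence over 3 wild-type libraries) of protein-coding genes with values above 0, both on log scales. Circles are giant-protein genes with at least 90% of their RNA on isoforms of at least 9000 coding nt, triangles those under 90%, and grey points all other genes; apolpp and Muc12Ea stand highest among the coloured symbols.

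Footprints against RNA asked how densely the messages of these genes were occupied. The log2 ratio of normalised footprints to normalised RNA was fitted in each genotype; 0 is close to the median protein-coding gene, whose ratio was 0.03 in wild-type and 0.03 in Polr3D EY/+ among 7624 genes that averaged at least 10 counts in both assays. A ratio was called where its adjusted p was under 0.1 and its size at least 1. In wild-type 56 members were called higher and 3 lower of 94 tested, against 16.2% called higher and 17.0% called lower of all 11287 genes tested. In Polr3D EY/+ 51 were called higher and 3 lower of 98 tested, against 16.9% and 17.9% of all 11565 genes tested. In both genotypes 48 members were called higher and 2 lower.

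The median log2 ratio of all 101 members was 1.84 in wild-type and 1.68 in Polr3D EY/+. Of the 101, 76 averaged at least 10 counts in both assays, with medians of 1.56 and 1.68, and 25 did not. RNA-Seq was deeper than Ribo-Seq, so this minimum admits genes of little RNA only where footprints are many. With a minimum of 50 RNA counts and none on footprints, 81 members had medians of 1.26 and 1.10. In single replicates the median log2 ratio of CPM over the 76 genes was 1.25 and 1.25 in wild-type replicates 1 and 2, and 1.43, 1.55 and 1.15 in Polr3D EY/+ replicates 1 to 3.

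The ratio stood highest in the longest of 5 length classes. Among genes with at least 10 mean counts in each assay, the median log2 ratio in wild-type was 0.01 for 4124 genes under 1500 nt, -0.04 for 2333 genes of 1500 to under 3000 nt, 0.09 for 917 genes of 3000 to under 6000 nt, 0.71 for 172 genes of 6000 to under 9000 nt and 1.56 for the giants. The medians in Polr3D EY/+ were 0.04, -0.05, -0.02, 0.63 and 1.68. Both the giants and the class below them stood above the shorter classes, which differed from each other by little. The share of genes called higher in wild-type was 14.4%, 15.2%, 22.0%, 43.0% and 64.5% in the same order. With the RNA minimum of 50 alone the medians in wild-type were -0.13, -0.11, -0.02, 0.68 and 1.26.

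Among genes with at least 10 mean counts in each assay, RNA and footprints per kilobase both fell with length. From the class of 6000 to under 9000 nt to the giants, RNA fell further than footprints. The median RNA in wild-type was 40.4, 19.9, 10.8, 6.49 and 2.59 CPM per kilobase in the 5 classes, from the shortest to the giants. The median footprint level was 47.5, 18.2, 10.4, 6.93 and 5.01 CPM per kilobase. Per kilobase, giants thus had the lowest median of the 5 classes in both assays. As totals per gene, with this minimum, their median footprints were the highest, at 59.3 CPM against 36.7, 37.0, 40.97 and 48.6 CPM. Their median RNA was the lowest, at 29.9 CPM against 48.2, 53.1, 52.2 and 43.9 CPM. Without a minimum, median footprints from the shortest class to the giants were 9.09, 17.3, 25.6, 37.2 and 36.9 CPM. Median RNA was then 14.4, 28.4, 35.0, 34.8 and 22.5 CPM. The giants were then neither highest in footprints nor lowest in RNA. Part of the transcript is untranslated and gives RNA fragments without footprints, and the coding part of the longest isoform rose from a median of 68.3% in the shortest class to 92.6% in the giants. With the ratio corrected for transcript and coding length, the median of the 76 giants was 0.97 in wild-type and 0.84 in Polr3D EY/+, against 0.01 and 0.02 over the 7624 genes. By the corrected ratio, 43 members were called higher and 10 lower of 94 in wild-type. The share of all genes called by the corrected ratio is not given here, so these counts have no background beside them. This correction takes the longest coding sequence of a gene, and 8 of the 10 lower calls were of members with under 90% of their RNA on giant isoforms: dom, unc-13, Mical, Ank2, M7BP, RhoGEF3, Strn-Mlck and Svil. The others were hiw and CG10631.

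**Figure D2:**
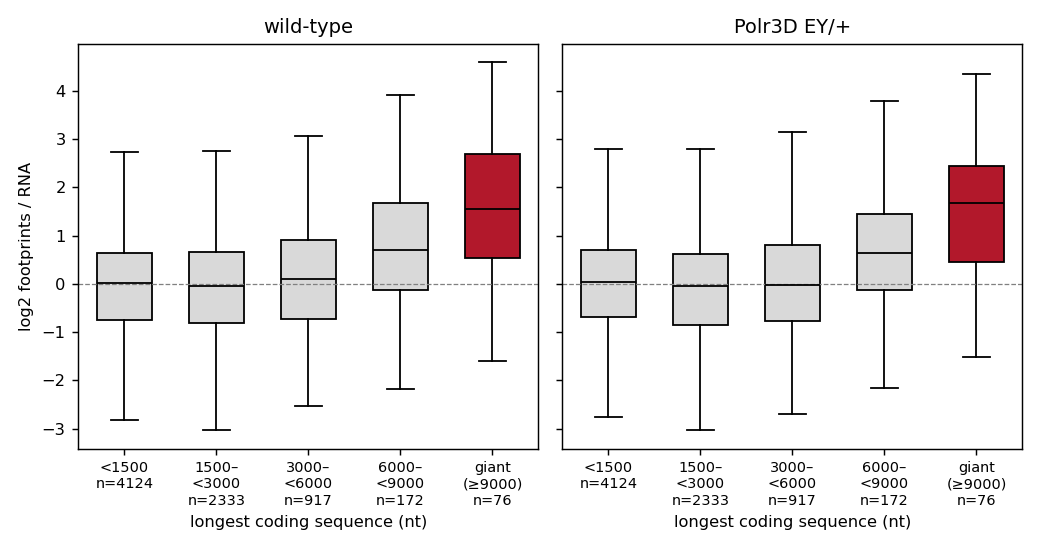
Log2 ratio of footprints to RNA (vertical) by length of the longest coding sequence in nt (horizontal) in wild-type (left) and Polr3D EY/+ (right), for genes that averaged at least 10 counts in both assays. Boxes span the quartiles, lines mark medians and whiskers reach the last gene within 1.5 times the box; the giants have a median of 1.56 and 1.68, above the 0.71 and 0.63 of the class below.

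The members differed widely among themselves, also in the isoforms that carried their counts. In 73 members at least 90% of the RNA was assigned to transcripts with a coding sequence of at least 9000 nt, in 12 members 10% to 90%, in 13 under 10%, and 3 had no RNA counts. Among genes over the minimum of 10 counts, the 55 with at least 90% on giant isoforms had a median log2 ratio of 2.23 in wild-type and 2.03 in Polr3D EY/+, and 41 of them were called higher and 0 lower in wild-type. The 21 with less on giant isoforms had medians of 0.54 and 0.48, with 8 called higher and 2 lower. For these 21 the gene's counts are not those of a giant message alone, and the division of fragments between isoforms is an estimate. Within the 76, the Spearman correlation of the wild-type ratio across genes was 0.35 with coding length and -0.34 with RNA per kilobase, from shared libraries and as a description only. RNA is the denominator of the ratio, and the minimum of 10 counts admits genes of little RNA only where footprints are many. A negative value with RNA is therefore partly built in, and nothing is concluded from it.

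The 6 highest ratios in wild-type among these 76 genes belonged to Muc12Ea, mgl, futsch, Dhc64C, Msp300 and CadN. Muc12Ea stood above the rest, with a log2 ratio of 5.95 ± 0.16 (SE) in wild-type and 6.36 ± 0.13 in Polr3D EY/+, or 61.8 times as many normalised footprints as RNA in wild-type. mgl had 859, 620 and 540 CPM of footprints in wild-type and 642, 628 and 555 CPM in Polr3D EY/+ libraries. Its RNA was 32.8 and 38.0 CPM in wild-type and 37.8, 32.4 and 35.3 CPM in Polr3D EY/+ libraries, and its log2 ratios were 4.59 ± 0.18 and 4.36 ± 0.15. In futsch, the fly counterpart of the microtubule-associated protein MAP1B of neurons, footprints averaged 36.9 ± 7.37 CPM (SD, n = 3) over RNA of 1.89 ± 0.016 CPM (n = 2) in wild-type, and the log2 ratio was 4.52 ± 0.39.

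The 6 lowest ratios in wild-type among the same 76 genes were those of RhoGEF3, unc-13, Bicra, dom, Strn-Mlck and tou. RhoGEF3 had a log2 ratio of -1.60 ± 0.45 (adjusted p = 0.00156, DESeq2), and unc-13, which primes synaptic vesicles, -1.22 ± 0.34 (adjusted p = 0.00135). Both were called lower in wild-type, and 0.978% and 7.55% of their RNA was on giant isoforms. Counted on giant isoforms only, the ratio of unc-13 was -0.33 and no longer called (adjusted p = 0.722), that of RhoGEF3 turned to 3.66 on 0 to 5 footprints and 3 to 18 RNA counts in a library, and that of Strn-Mlck, -0.53 over all isoforms, turned to 1.02 (adjusted p = 0.252) on 4 to 10 footprints. Corrected for length, RhoGEF3 had -3.55 and Strn-Mlck -3.02, both called lower.

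Bicra and dom are parts of chromatin remodelling complexes, as is tou, and none of them was called in wild-type. Their ratios were -0.90 ± 0.43 in Bicra (adjusted p = 0.0757, DESeq2), -0.85 ± 0.24 in dom (adjusted p = 0.00149) and -0.50 ± 0.41 in tou (adjusted p = 0.338), all under the size of 1. In Polr3D EY/+ Bicra was called lower at -1.48 ± 0.37 (adjusted p = 0.000244). It was also called lower in wild-type with TMM factors (-1.03, adjusted p = 0.0368) and with all 11 libraries (-1.08, adjusted p = 0.0172). Its footprints were 12.0, 9.76 and 5.34 CPM in wild-type libraries. On giant isoforms Bicra had no footprint in any library.

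CG10631 was called lower in both genotypes on few footprints and was named after its values were seen. It had 8, 3 and 3 footprints in the wild-type and 8, 13 and 7 in the Polr3D EY/+ libraries beside 410 and 547 RNA counts in wild-type.

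Of 13 dynein heavy chains only Dhc64C, the motor subunit of cytoplasmic dynein, had counts over the minimum. Dhc64C lies on 3L (4807368 to 4825687, - strand). Its footprints were 667, 688 and 618 CPM in wild-type and 664, 648 and 559 CPM in Polr3D EY/+ libraries. Its RNA was 46.0 and 58.1 CPM in wild-type and 53.05, 38.0 and 48.6 CPM in Polr3D EY/+ libraries. The genotypes overlapped in both assays, and the log2 ratio was 3.92 ± 0.19 in wild-type and 3.99 ± 0.16 in Polr3D EY/+.

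The other 12 dynein heavy chains, most of them known for motile cilia and sperm tails, had at most 12 footprints in a library. Dhc36C had the most, with footprints of 3.32 ± 1.57 CPM (n = 3) over RNA of 2.26 ± 0.45 CPM (n = 2) in wild-type, and Dhc93AB had RNA of 1.69 ± 0.209 CPM and footprints of 0.700 ± 0.671 CPM. btv, the dynein that carries cargo within cilia, had at most 2 footprints in any library. Dhc98D, Dhc62B and Dhc1 had at most 5, 2 and 4 footprints, and CG3339 at most 3. The call of CG3339 and that of Dhc1 as higher in wild-type rest on these counts. The Y-linked sperm dyneins kl-2, kl-3 and kl-5, whose chromosome females do not carry, had at most 1 footprint and at most 1 RNA count in a library. Dhc16F had 2 footprints in a single library and RNA listed at 0. Dnah3 had no footprint in 6 libraries, which allows up to 0.940 to 2.66 CPM, and so did Muc68Ca and Muc14A, of the mucin family. Of the 101 members, 11 had at most 3 footprints in every Ribo-Seq library.

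Of the 76 members over the minimum, 64.5% were called higher in wild-type and 57.9% in Polr3D EY/+. The role lists from here on are small and were not tested against these shares. The lipoproteins and their receptors were called higher in both genotypes, 4 of 4. Their log2 ratios in wild-type were 2.99 ± 0.17 in apolpp, 3.67 ± 0.16 in Apoltp, 4.59 ± 0.18 in mgl and 2.89 ± 0.29 in LRP1, and their median in Polr3D EY/+ was 3.38. Apoltp footprints were 786, 719 and 693 CPM in wild-type and 723, 717 and 743 CPM in Polr3D EY/+ libraries over RNA of 56.4 to 77.3 CPM in the 5 RNA-Seq libraries. Fat body is the source of apolpp and Apoltp, while mgl and LRP1 act as endocytic receptors.

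Of 6 members of the extracellular matrix list, which holds none of the mucins named here, 5 were called higher in wild-type and 4 in Polr3D EY/+. The log2 ratio was 3.38 ± 0.25 in trol, 3.32 ± 0.44 in dpy, 3.13 ± 0.16 in Hml and 2.95 ± 0.18 in LanA. It was 1.22 ± 0.48 in wb, a laminin chain. The list also counts pcx, which is a membrane protein and not a matrix protein. pcx had 0.68 ± 0.34 and was not called. dpy encodes Dumpy, a giant protein that anchors the cuticle to epidermis and tendon cells, in 82 exons over 136839 bases of 2L. Its footprints were 48.8, 21.3 and 24.4 CPM in wild-type and 21.1, 30.1 and 25.2 CPM in Polr3D EY/+ libraries. With 0.46 footprint CPM per kilobase it was sparsely covered for its length.

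Cytoskeletal linkers were called higher in 5 of 5 members in wild-type and 4 of 5 in Polr3D EY/+. Their log2 ratios in wild-type were 4.52 in futsch, 3.87 ± 0.23 in Msp300, a nesprin that anchors nuclei and muscle cytoskeleton, 2.55 ± 0.24 in kst, the heavy beta spectrin of apical membranes, 2.23 ± 0.21 in shot, a spectraplakin, and 1.01 ± 0.46 in Ank2, a neuronal ankyrin, which was called lower once corrected for length (-1.36). Msp300 also belongs to the muscle giants, and it was the only 1 of those 5 called. Strn-Mlck, a stretchin and myosin light chain kinase gene, had -0.53 ± 0.28, zormin -0.25 ± 0.36, Obsc, the fly obscurin, 0.52 ± 0.31 and RyR, the calcium release channel of muscle, 0.85 ± 0.38. The median of the 5 muscle giants was 0.52, against 2.55 for the linkers.

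The giant cadherins kug and CadN were over the minimum of counts, and ft, ds and stan were not. kug, which polarises the follicle epithelium of the ovary, had 42.8, 41.7 and 42.7 CPM of footprints in wild-type and 49.1, 50.4 and 48.8 CPM in Polr3D EY/+ libraries. Each Polr3D EY/+ library was thus above each wild-type library, but the difference was not called (log2 0.18, unadjusted p = 0.518). Its RNA was 18.8 and 21.7 CPM in wild-type and 18.6, 15.1 and 22.2 CPM in Polr3D EY/+ libraries, and its log2 ratio was 1.28 ± 0.27 in wild-type and 1.68 ± 0.22 in Polr3D EY/+. CadN, a neuronal and epithelial adhesion protein, had 3.69 ± 0.42 and 3.86 ± 0.35. The growth and polarity cadherins ft, ds and stan had 5.55 ± 1.23, 3.94 ± 4.71 and 3.49 ± 1.79 CPM of footprints in wild-type (n = 3), over RNA under 1 CPM.

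Of the 5 listed ubiquitin ligases 4 were called higher in both genotypes, with log2 ratios in wild-type of 3.14 ± 0.20 in poe, 2.54 ± 0.21 in Bruce, 2.49 ± 0.20 in HUWE1 and 1.04 ± 0.29 in HERC2. hiw, a ligase of synaptic growth, had 4 to 10 footprints in the wild-type libraries and a ratio of -0.84 ± 0.55, called lower once corrected for length (-1.20). ctrip, which is not in that list, had 1.15 ± 0.24 in wild-type, called higher, and 0.91 ± 0.20 in Polr3D EY/+. All 7 members of membrane trafficking were called higher in both genotypes, beside 64.5% and 57.9% of the 76 members over the minimum. They ran in wild-type from mv at 1.10 ± 0.27 to rg at 2.67 ± 0.28. The lipid transfer proteins Vps13, Vps13B and Vps13D had 2.37, 1.43 and 2.29. CG13185, the counterpart of midasin in yeast, which matures the large ribosomal subunit, had 3.41 ± 0.20. Corrected for length, 3 of the 5 listed ligases and 6 of the 7 trafficking members were called higher in wild-type.

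Of the 5 members listed under chromatin and transcription, 0 were called in either direction in either genotype, with 0 also by edgeR's test. These 5 do not include Bicra, tou, spen and zfh2 and do not stand for all members with such roles. The log2 ratios of the 5 in wild-type were 0.78 ± 0.23 in kis, 0.16 ± 0.32 in trx, 0.10 ± 0.30 in Nipped-A, -0.02 ± 0.25 in Smr and -0.85 ± 0.24 in dom. Of these, kis and dom passed an unadjusted p under 0.05 by DESeq2 and by edgeR in both genotypes, at a size under 1. Corrected for length, dom was called lower in wild-type (-1.37, adjusted p = 7.03e-08) and in Polr3D EY/+ (-1.40), and the other 4 were not called. Outside the list, by the same corrected ratio, spen was called higher in both genotypes and zfh2 in wild-type only. Bicra was called lower in Polr3D EY/+ only, and tou was called in neither genotype. Over all isoforms, wild-type RNA was 184 ± 35.5 CPM (n = 2) in dom and 128 ± 40.6 CPM in Nipped-A. In Dhc64C it was 52.1 ± 8.58 CPM. Footprints were 658 ± 36.3 CPM (n = 3) in Dhc64C and 83.2 ± 11.9 CPM in dom. Giant isoforms held only a part of the counts of dom. They had 1511 and 1581 RNA counts and 49, 28 and 33 footprints in the wild-type libraries.

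**Figure D3:**
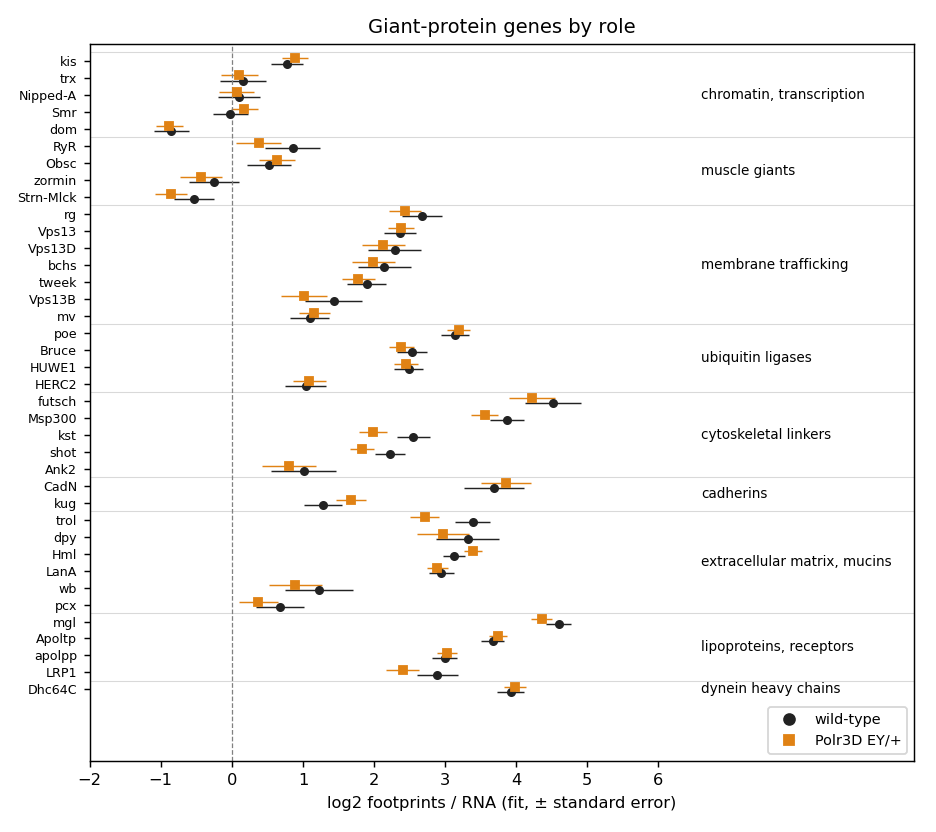
Log2 ratio of footprints to RNA with its standard error (horizontal) for the giant-protein genes of 9 role lists that averaged at least 10 counts in both assays (vertical), in wild-type (black circles) and Polr3D EY/+ (orange squares). A gene in more than 1 list is drawn once; the 5 listed chromatin genes lie from -0.85 to 0.78 and lipoproteins and their receptors from 2.89 to 4.59 in wild-type.

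Giants are described here by other features too, of which gene span is not free of the rule, since it includes the coding sequence. Their median gene span was 27734 bases with 16 exons and 4 transcripts, against 17670 bases, 11 exons and 4 transcripts in the class of 6000 to under 9000 nt and 1477 bases, 3 exons and 1 transcript for genes under 1500 nt. They lay on chromosome X in 23 of 101 cases (22.8%, against 15.7% of protein-coding genes), on chromosome 4 in 3 and on Y in 3. At the edge of the rule, Bicra (9012 nt) and zfh2 (9018 nt), a zinc finger and homeodomain factor, were just inside, with log2 ratios of -0.90 and 2.24 in wild-type. CG13492 (8940 nt) and jbug (8973 nt), a filamin-type actin binder, were just outside, with 2.84 and 0.60.

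The genotype contrasts asked whether the partial loss of Polr3D changed these genes. In RNA 1 member, Muc12Ea, was called lower and 0 higher of 100 tested, against 1.02% of all 13233 genes tested in either direction. In footprints 0 of 101 were called, against 0.369% of 14346 genes, and in translation efficiency, the difference between the changes of footprints and of RNA, 0 of 101 against 0.265%. At an unadjusted p under 0.05 the footprint contrast held 5 members by DESeq2 and 6 by edgeR, and translation efficiency 2 and 1. Counts of this size among 101 genes can arise at that threshold without any difference between the genotypes. The share of all genes under that threshold is not given here, so these counts are not read as a result about the members. By edgeR 0 members were called in RNA, with 2 at an unadjusted p under 0.05, and 0 in both other contrasts.

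Muc12Ea RNA had a log2 difference of -0.56 ± 0.15 (SE, adjusted p = 0.033). Its footprints had -0.16 (unadjusted p = 0.300), and its translation efficiency was not called. The RNA call was lost by edgeR (adjusted p = 1), with the RNA-Seq libraries fitted alone, with a minimum of 10 counts, and without wild-type replicate 1, Polr3D EY/+ replicate 1 or Polr3D EY/+ replicate 3. Over the alternatives its log2 difference ran from -0.78 to -0.34 and its adjusted p from 0.000597 to 1.

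Without a call, more members lay below 0 than above. Footprints of 60 of the 76 genes over the minimum had a log2 difference below 0, with a median of -0.18, against 3990 of 7624 genes and a median of -0.01. The medians of the length classes were 0.04, -0.05, -0.11, -0.16 and -0.18, from the shortest to the giants. RNA of 61 of the 76 lay below 0, with a median of -0.09. The RNA medians of the shorter classes were 0.010, 0.005, -0.017 and -0.059, from the shortest up. The direction of the giants in RNA turned without wild-type replicate 2, where the median was 0.11, or without Polr3D EY/+ replicate 2 (0.08). The median of translation efficiency was -0.07, and it was 0.05 without wild-type replicate 1.

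**Figure D4:**
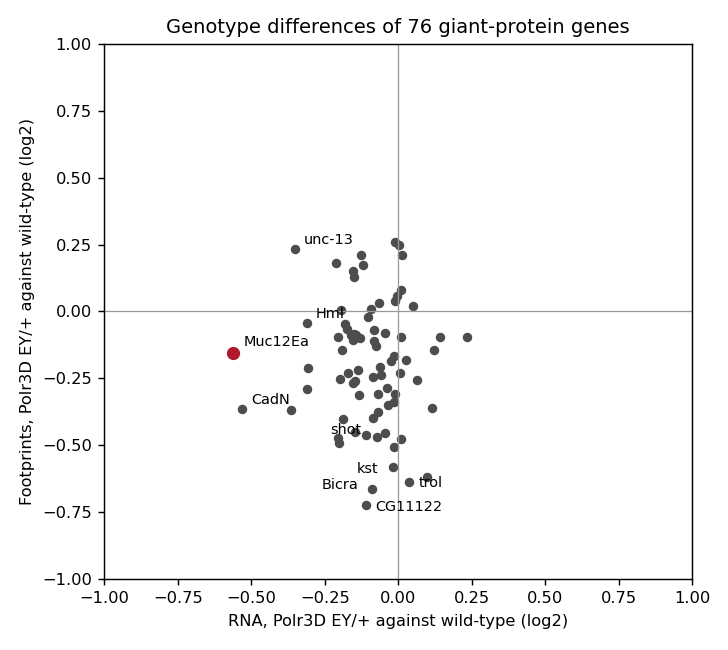
Log2 difference between Polr3D EY/+ and wild-type in RNA (horizontal) and in footprints (vertical) for the 76 giant-protein genes that averaged at least 10 counts in both assays. Muc12Ea, in red, is the gene called in RNA at -0.56; no gene was called in footprints, and 60 points lie below the horizontal line.

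Replicate 1 of the wild-type Ribo-Seq libraries stood apart in some members, which was seen in the values and then counted. Of 72 members with a mean of at least 20 footprints, 10 had at least 1.25 times the CPM there of any other Ribo-Seq library, against 2.54% of 6463 protein-coding genes. Each of the other 5 libraries had 0 to 2 such members. The 10 were mgl, trol, kst, shot, Msp300, LRP1, Sdb, Mical, dpy and CadN. On the low side, by the same factor, 6 of the 72 members stood apart in Polr3D EY/+ replicate 3, against 4.13% of genes. Wild-type replicate 3 had 4 low members (2.74% of genes) and wild-type replicate 1 had 3 (4.83%). The remaining Ribo-Seq libraries had 0 to 1. trol footprints were 600, 344 and 299 CPM in wild-type and 332, 308 and 226 CPM in Polr3D EY/+ libraries, while trol RNA ran from 46.9 to 57.1 CPM over the 5 RNA-Seq libraries. kst footprints were 400, 220 and 204 CPM in wild-type and 218, 198 and 179 CPM in Polr3D EY/+ libraries.

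**Figure D5:**
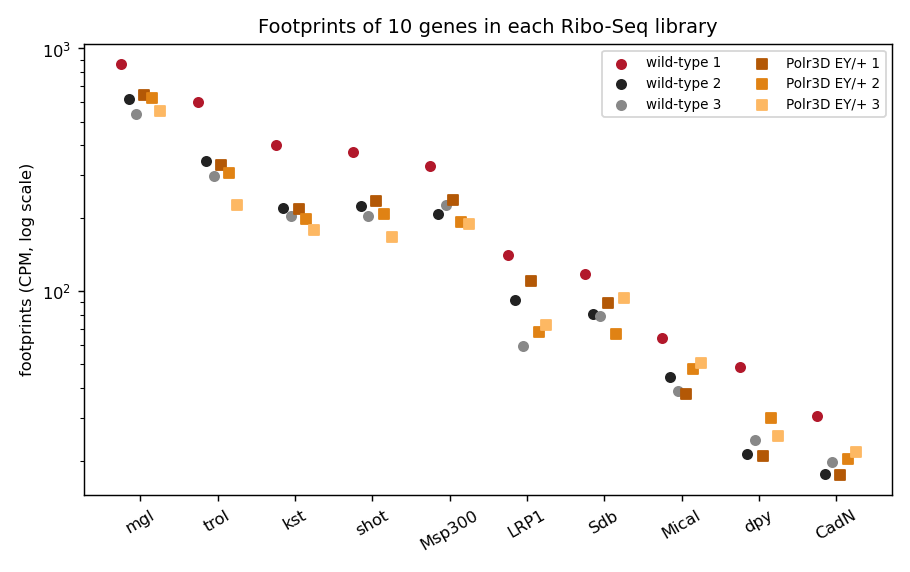
Footprints in CPM on a log scale (vertical) of the 10 genes named for wild-type replicate 1 (horizontal), with a symbol for each of 6 Ribo-Seq libraries, circles for wild-type and squares for Polr3D EY/+. The red circle of wild-type replicate 1 is the highest of each gene, for trol 600 CPM against 226 to 344 CPM elsewhere.

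This library bears on the footprint contrast. With wild-type replicates 2 and 3 in place of 1 and 2, a choice made after seeing the data, the median log2 difference of the 76 genes was -0.07, with 47 below 0, and 0 of 101 were called. Some of the marker sums moved with the library as well. The 9 muscle markers summed to 515 CPM of footprints in wild-type replicate 1, against 406 and 405 CPM in replicates 2 and 3. In the Polr3D EY/+ libraries they summed to 350 to 446 CPM, and 9 of 9 were detected in each group. The ovary germline markers (468 CPM, against 330 to 428 CPM in the other 5 libraries) and the fat body markers (50342 CPM, against 42972 to 47041 CPM) were also highest there, and the follicle cell markers were lowest (11094 CPM, against 11312 to 14455 CPM). The haemocyte markers were not highest there (395 CPM, against 409 CPM in Polr3D EY/+ replicate 3). The neuron markers hardly differed (56.8 CPM, against 56.2 CPM in Polr3D EY/+ replicate 1). The fat body list holds apolpp and the haemocyte list Hml, which are themselves members. The part of these markers in the result was not tested. Without wild-type replicate 2, where the fit rests on replicate 1 for wild-type, kst was called lower in footprints (log2 -0.89, adjusted p = 0.0288) and in translation efficiency (log2 -1.07, adjusted p = 0.0693).

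The members with an unadjusted p under 0.05 in footprints were trol, kst, CG13185, shot and Ten-m, all lower in Polr3D EY/+ and none called. That threshold can pass as many of 101 genes where no gene differs. CG13185 had 210, 201 and 185 CPM in wild-type and 162, 142 and 150 CPM in Polr3D EY/+ libraries, with no overlap. Ten-m, a teneurin of synapse partner choice, had 101, 93.1 and 77.1 CPM in wild-type and 67.6, 74.9 and 66.4 CPM in Polr3D EY/+ libraries, again with no overlap. Their log2 differences were -0.47 ± 0.19 and -0.45 ± 0.21 (adjusted p = 0.99994 for both, DESeq2). shot, at -0.47 ± 0.20, and kst, at -0.58 ± 0.23, are among the genes high in wild-type replicate 1, as is trol at -0.64 ± 0.24 (adjusted p = 0.839).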

How the data were processed

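The authors trimmed adapters with Cutadapt and assigned reads of both assays with Salmon to the transcriptome, noncoding RNA included, in an index with decoys. The deposited values are estimated counts per transcript, rounded to whole numbers and not normalised. Fragments shared by isoforms or by repeats were divided by Salmon's model, so counts per isoform are estimates. Of 28367 transcripts, 22 had no match in the annotation (BDGP6.54), a later release than the authors used. They held at most 0.044% of the counts of an RNA-Seq library. Wild-type replicate 3 of RNA-Seq is not analysed here, and sequences are not shown.

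Counts were summed per gene. The main test was DESeq2 1.42.0 (R 4.3.3) on 10 libraries. The study removed wild-type replicate 3 on its RNA-Seq and its deposited table keeps that replicate's Ribo-Seq library, which was left out of the main fit here and included in an alternative. The model had terms for replicate number, genotype, assay and their interaction, 6 parameters with 4 residual degrees of freedom. Wald tests (two-sided) were called at an adjusted p (Benjamini-Hochberg, over all genes) under 0.1; ratios also needed a log2 of at least 1. CPM, shares and figures used 11 libraries. Log2 ratios of single replicates used a pseudocount of 0.5 counts. Footprints per kilobase used the longest coding sequence, and RNA per kilobase the mean transcript length weighted by RNA. The fits were tested on simulated data, where DESeq2 also called some unchanged genes. edgeR 4.0.16 was among the alternatives.

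The members, gene lists and tests were chosen with earlier results of these data known. The text names the 10 members with most footprints per kilobase, members called between genotypes, the 6 highest and 6 lowest ratios, all dynein heavy chains, cadherins and muscle giants, and the genes nearest the threshold; others were named for their lists or, where stated, after their values were seen. As to the replicate block, the number enters the study's model as a batch. Deviations of same-numbered libraries did not go together, with correlations of -0.10, -0.04 and -0.08 between the assays in Polr3D EY/+, -0.15 to 0.04 between the genotypes in Ribo-Seq and -0.60 between them in RNA-Seq, over the 2 replicates that both hold.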

Additional observations from a re-analysis of the deposited data

How the results depend on the processing

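Over all alternatives run, 47 to 63 members were called by their ratio of footprints to RNA in wild-type (59 in the fit reported, 56 higher and 3 lower) and 45 to 57 in Polr3D EY/+ (54, 51 higher and 3 lower). Corrected for length, where the share over all genes is not given, the calls were 43 higher and 10 lower in wild-type and 40 and 10 in Polr3D EY/+. With all 11 libraries they were 56 and 5, and 51 and 3, and between genotypes the calls numbered 1 in RNA and 0 in the other contrasts. Leaving out a replicate gave 47 to 60 and 49 to 57. The median log2 ratio of the 76 genes ran from 0.97, corrected for length, to 2.06 in wild-type and from 0.84 to 1.99 in Polr3D EY/+. In RNA the 1 called member became 0 with edgeR and TMM factors, with a mean of at least 10 counts, with Polr3D EY/+ replicate 1 of RNA-Seq left out and with that assay fitted alone. It became 2 on giant isoforms only, and 0 to 1 without a replicate. In footprints and in translation efficiency the 0 called became 1 each on giant isoforms only, and 0 to 1 without a replicate. The added calls on giant isoforms were CG34417 in footprints (-1.02, adjusted p = 0.0304) and Svil in RNA and translation efficiency, whose giant isoforms had 68 RNA counts in Polr3D EY/+ replicate 2 and 0 in the other 4 RNA-Seq libraries. The added calls without a replicate were of kst. Where wild-type replicate 1 or 2 is left out, the lone wild-type library per assay is assumed to vary like the other groups. The cause was not tested. Without the replicate block, the pairing by number left 1 member called in RNA (Muc12Ea, log2 -0.50, adjusted p = 0.0591), 0 in footprints, 0 in translation efficiency, 63 in the wild-type ratio and 54 in the Polr3D EY/+ ratio, and moved no count of calls by over 1.5 times. On giant isoforms only, the wild-type ratio of Strn-Mlck turned to 1.02 (adjusted p = 0.252) and that of RhoGEF3 to 3.66, and unc-13 lost its call (-0.33). Corrected for length, Strn-Mlck had -3.02. Without a replicate, the median RNA difference ran from -0.28 (wild-type replicate 1) to 0.11 (wild-type replicate 2) and that of translation efficiency from -0.27 (wild-type replicate 2) to 0.054 (wild-type replicate 1). The latter was 0.0093 with wild-type Ribo-Seq replicates 2 and 3. TMM factors moved the median ratio of the 7624 genes in wild-type from 0.03 to -0.10, and 55 members were called. A mean under 10 counts in an assay limits 25 members. Ribo-Seq depth is not the only reason, since some of them had little RNA too. In every RNA-Seq library 5 members had at most 3 RNA counts, and 3 members had no RNA counts.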

Other observations

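The endocytic receptors Cubn and Cubn2, counterparts of mammalian cubilin, were not in a list of roles and were looked up after their values were seen. Cubn footprints were 102, 110 and 97.7 CPM in wild-type and 105, 117 and 147 CPM in Polr3D EY/+ libraries, and its log2 ratio to RNA was 2.76 ± 0.20 (SE) in wild-type and 3.07 ± 0.16 in Polr3D EY/+. Cubn2 had 44.8, 61.2 and 50.4 CPM in wild-type and 63.2, 52.6 and 70.6 CPM in Polr3D EY/+ libraries, with ratios of 3.17 ± 0.28 and 3.47 ± 0.22. The genotypes overlapped for both genes.

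unc-13 footprints were 36.0, 32.3 and 90.8 CPM in the Polr3D EY/+ libraries and 38.1, 32.8 and 29.0 CPM in the wild-type libraries, so Polr3D EY/+ replicate 3 stood apart from the other 5. Its RNA in that replicate was 88.8 CPM, within the 80.0 to 98.5 CPM of the 5 RNA-Seq libraries.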
